A study of Mus musculus with 2 samples.

Results

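Cytosolic ribosomal protein genes encode the protein shell of the ribosome, and 82 of the 15526 genes in the table belong to them. They were taken by symbol alone: Rpl or Rps with a number and at most a short suffix, plus Rplp0, Rplp1, Rplp2 and Rpsa. By role they divide into 31 genes of the small (40S) subunit, 46 genes of the large (60S) subunit and 5 paralogs or atypical forms (Rpl3l, Rpl7l1, Rpl22l1, Rpl39l and Rps27l). Rpl10l and Rps4l, also looked for, are not among the genes used here.

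The cells came from lungs of p16-FDR mice, C57BL/6 animals 20 to 22 months old. Their reporter allele is named for p16, a cell-cycle inhibitor made from the Cdkn2a gene, and holds an FLP recombinase and a receptor for diphtheria toxin that carries mCherry, a red fluorescent protein. Every cell analysed had been sorted as mCherry-positive, there is 1 group with 2 samples, and neither young animals nor mCherry-negative cells were analysed here, so all comparisons are between cell classes inside the sorted population. How many mice gave each sample is not stated in the labels.

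A ribosome holds as a rule 1 copy of each of its proteins, and growing cells make these proteins in matching amounts. Their messages are among the most abundant in most mammalian cells, are short and long-lived, and many start with a terminal oligopyrimidine (TOP) tract, a run of C and T bases right at the cap through which mTOR and Larp1 set how much of the message is translated. In single-cell data lymphocytes are known for a high share of such messages. Some ribosomal proteins, among them Rpl5 and Rpl11, also act outside the ribosome by binding Mdm2, the ligase that degrades p53.

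The table held 1344 cells with 2517 to 49467 unique molecular identifiers (UMIs, each 1 captured message molecule). Library 1 gave 1145 cells (median 5631 UMIs) and library 2 gave 199 cells (median 6716 UMIs). No cell barcode occurred in both libraries. The library numbers could not be tied to the samples of the labels, so the table counts as 1 sample, no test was run, and each library's value stands beside the pooled one. Brackets give exact 95% intervals, Poisson for rates and Clopper-Pearson for shares, which cover counting error only. Because the kit reads 3' ends, 1 molecule gives 1 UMI whatever its length, and levels below are UMIs of a gene per 10000 UMIs of the cells.

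Together the 82 genes took 1298087 of 9738042 UMIs, a share of 13.3% [13.3, 13.4], and 48 of them were among the 100 genes with most UMIs. Their median level was 17.0 UMIs per 10000, with 78 genes at 1 or more, 60 at 10 or more and 31 at 20 or more. The highest levels were 43.3 for Rps29, 38.01 for Rpl41, 36.6 for Rps24, 33.8 for Rpl37a and 32.7 for Rpl13. Rps27 followed with 31.7, Rps20 with 28.4, Rpl23 with 26.9, and Rpl39 and Rpl35a with 25.9 each. These 10 genes held 24.2% of all ribosomal protein UMIs, so the pool was not carried by a few messages. At the low end stood Rpl23a (2.79), Rpl13a (0.95) and the paralog Rpl7l1 (0.49). Copies elsewhere in the genome make such differences between genes uncertain: processed copies of Rpl13a, Rpl10, Rpl27, Rpl9, Rpl36a, Rpl7a and Rps12 are listed separately, as are Rps27rt with 893 UMIs and Rpl36al with 3954 UMIs, and reads that match a gene and its copy can be lost or split. Each of these 9 separate entries was also lower in endothelial-like than in other cells, the copies of Rpl7a and Rpl13a on only 17 and 15 UMIs.

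Some of the genes on which the later results turn are shown first by the 25 bases around their annotated start. These are 10 bases before it and 15 from it, from the RefSeq promoters of GRCm38.p6. Capitals mark the unbroken run of C and T that begins at the annotated start itself. Rps27 follows the group and carries a TOP tract, and Rps27l is its paralog. The others are among the genes more than 1.5-fold from the group in endothelial-like cells. Not all such genes are shown. Rps15 departed further than Rpl15 (1.86 against 1.65), and its window, not shown, has no tract at the start.
Rps27: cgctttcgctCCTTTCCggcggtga
Rps27l: cctccccgccgcctctatcccggaa
Rpl7l1: gctgcgcaagCgcagtagctgaagc
Rpl31: tcctcgcctcCCCgtgacccggaag
Rpl15: agaaagccttCTTCCTTTCCTCTgg
Rps28: cgcgtgcggtCTCgcgagagcgaaa
The windows lie at chr3:90213634-90213658 on the minus strand for Rps27, chr9:66946076-66946100 on the plus strand for Rps27l and chr17:46782642-46782666 on the minus strand for Rpl7l1. Rpl31 is at chr1:39367841-39367865 on the plus strand, Rpl15 at chr14:18270972-18270996 and Rps28 at chr17:33824548-33824572, both on the minus strand. Rps27l has a further annotated start, not shown. A TOP tract was counted as a C at the start followed by at least 4 bases that are C or T, on the sense strand. Of the 82 genes, 62 matched a RefSeq promoter, with 74 starts in all, and 13 of these starts (17.6%) began with such a tract, against 2.51% of all 32851 promoters of the same length. With the tract allowed to begin within 5 bases of the annotated start, the shares were 41.9% and 18.3%. Of the 6 genes shown, Rps27 and Rpl15 began with a tract by this definition. Annotated starts can lie a few bases from the true cap, so a window without the letters says nothing about the message.

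Cells were grouped without using these genes, and classes were named from marker genes. Endothelial-like cells had 11 of 12 endothelial markers in at least 25% of cells, T-cell-like cells 8 of 9 T-cell markers, B-cell-like cells 7 of 7 B-cell markers and interstitial-macrophage-like cells 9 of 9 of theirs. Contractile-mesenchymal-like cells, led by Acta2 and Tagln, had 5 of 9 contractile markers at that level and also 8 of 9 fibroblast markers. A cluster led by Mmp12, Ccl17 and Ccl22 (cluster 8) and a cluster with Scgb1a1 as well as fibroblast genes (cluster 12) stayed unnamed.

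Ribosomal protein messages filled a 5.15-fold different part of the transcriptome from class to class. B-cell-like cells had the highest share, 30.1% [30.03, 30.26] of UMIs over 82 cells, and T-cell-like cells 27.9% [27.8, 28.1] over 156 cells. Serous-cavity-macrophage-like cells, led by Prg4 and Alox15, followed with 22.1% over 49 cells, and cluster 8 with 20.7% over 76 cells. Both mesenchymal classes were equal within counting error, with 15.9% [15.8, 16.0] in contractile-mesenchymal-like and 15.9% [15.8, 15.9] in fibroblast-like cells. Lower still were alveolar-macrophage-like (12.9%, 20 cells), interstitial-macrophage-like (12.1%, 104 cells) and cluster 12 cells (11.97%, 48 cells). In cluster 12 the 5 club-cell markers had a summed level of 2812, which lowers the share of all other messages there. The ribosomal protein share of cluster 12 without these markers was not tested, so its place in this order is uncertain. At the bottom were plasma-cell-like cells with 7.46% [7.40, 7.52] and endothelial-like cells with 5.86% [5.83, 5.88] over 603 cells. The low plasma-cell-like value went with immunoglobulin messages at 59.8% of UMIs: with these and mitochondrial messages left out of the total it was 19.3%, while the endothelial-like value was 6.02%. Among these sorted cells, T- and B-cell-like cells thus stood at one end and endothelial-like cells at the other.

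Single cells followed the same order but spread widely. Endothelial-like cells ran from 1.13% to 18.2% with a median of 4.95%, and T-cell-like cells from 9.17% to 52.8% with a median of 26.5%. Of the endothelial-like cells, 92.9% lay below the lowest T-cell-like cell, 36 of 603 reached 10%, and 1 of 238 T- or B-cell-like cells was under 10%. The spread between endothelial-like cells was 2.59 percentage points (SD over cells), against 0.31 that counting alone would give at their depth. Among T-cell-like cells it was 7.78 against 0.72. A cluster of T-cell-like cells led by Nkg7 and Cd8b1 had a share of 32.0% (55 cells), above the 25.8% of a cluster led by Trdc (101 cells), the constant chain of gamma delta T cells. The share is relative to a cell's other messages, and depth differed between classes. In numbers of molecules, the mean was 345.7 ribosomal protein UMIs in an endothelial-like cell, 1096 in a T-cell-like cell and 2222 in a B-cell-like cell. The median depth was 5239 UMIs in endothelial-like, 3637 in T-cell-like and 6553 in B-cell-like cells. The part of depth in the class shares was not tested.

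**Figure D1:**
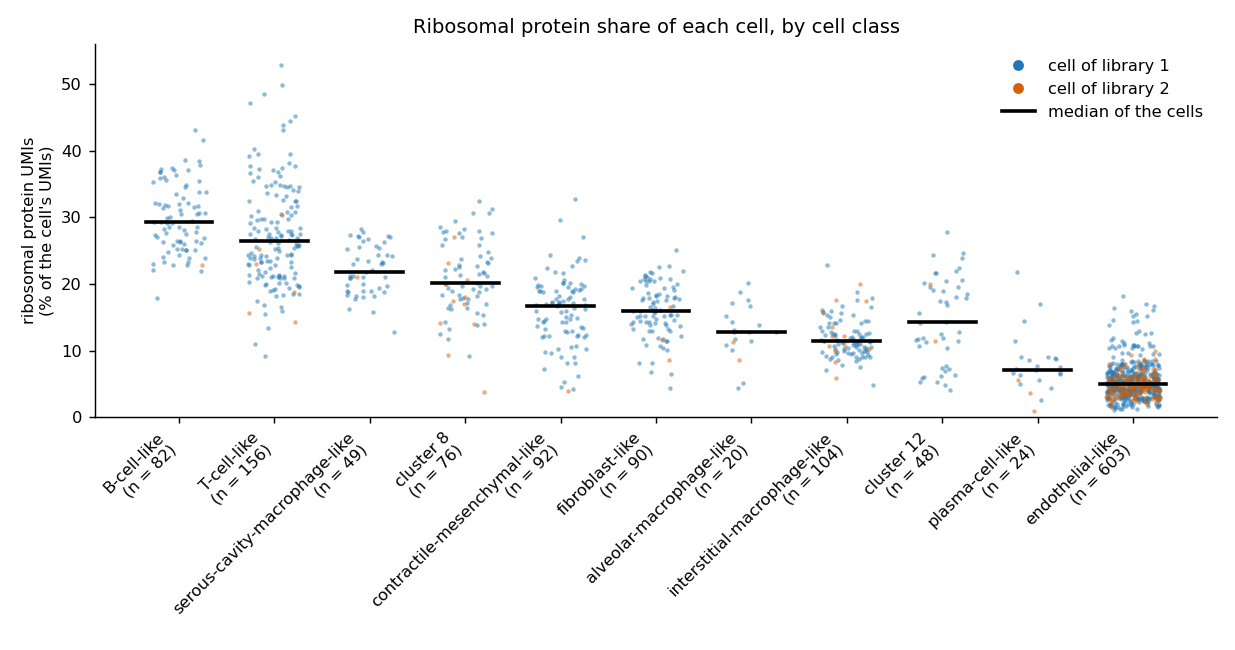
Share of each cell's UMIs that came from the 82 ribosomal protein genes (y axis, percent), by cell class (x axis, with the number of cells); points are cells coloured by library, placed with random sideways spread, and black bars are medians over cells. B- and T-cell-like cells lie highest (medians 29.4% and 26.5%) and endothelial-like cells lowest (median 4.95%).

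In endothelial-like cells the share was 0.332 times that of all other cells together (5.86% against 17.6%). The ratio was 0.341 in library 1, where 6.16% stood against 18.1%, and 0.403 in library 2, where 5.13% stood against 12.7% over only 45 other cells. Among cells of 4000 to 10000 UMIs it was 0.299. Nearly every gene took part: of the 80 genes with at least 0.1 UMIs per 10000, 76 were at least 1.5-fold lower in endothelial-like cells and 0 were as much higher. Over all 8920 genes tested in this way, 20.5% were called lower and 46.9% higher. The median gene of the 80 had a ratio of 0.345, against 1.46 for all genes. By subunit, 30 of 31 small-subunit genes (median ratio 0.309) and 45 of 46 large-subunit genes (median ratio 0.363) were lower. Among the genes short of that mark were Rpl31, Rps27l and Rpl7l1.

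Levels of single genes show the size of the difference. Rps29, a zinc-binding protein of the small subunit, was at 22.2 UMIs per 10000 in endothelial-like cells of library 1 and 12.97 in those of library 2, against 58.8 and 37.8 in the other cells. Rps24 was at 13.6 and 9.76 against 52.02 and 33.3. Rpl41, the smallest ribosomal protein, was at 22.2 and 16.3 against 49.7 and 30.9. In each of these genes both endothelial-like values were below both values of the other cells. Rps19, the gene most often altered in Diamond-Blackfan anaemia, was at 8.90 and 6.87 in endothelial-like cells of the libraries and at 36.9 and 22.4 in other cells. Rpsa, which is also known as a laminin receptor, was at 8.28 and 6.60 against 35.3 and 24.9. Rpsa had one of the lowest ratios, 0.225 [0.216, 0.234]. The P-stalk of the large subunit, which recruits elongation factors, consists of Rplp0, Rplp1 and Rplp2. In the same order of libraries, Rplp0 was at 7.53 and 7.91 against 31.3 and 23.99, and Rplp1 at 9.08 and 9.92 against 32.0 and 30.3. Rplp2 was at 5.63 and 5.04 against 15.7 and 11.3. All 3 stalk genes were lower in endothelial-like cells of either library. The Mdm2-binding proteins Rpl5 and Rpl11 were lower as well, Rpl5 at 1.89 and 2.24 against 5.07 and 3.90, and Rpl11 at 8.03 and 7.11 against 20.7 and 14.7.

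A few genes departed from this common shift. That shows when each gene is given as a part of the ribosomal protein UMIs rather than of all UMIs. Relative to the group, 72 of 80 genes in endothelial-like cells lay within 1.5-fold of the other cells. Those past it included Rpl7l1 (3.99-fold higher part), Rps27l (3.40), Rpl31 (2.45), Rps15 (1.86), Rpl15 (1.65) and Rpl29 (1.55) above the group and Rps28 (0.473) below it. In levels, Rps28 showed the widest gap of these, at 5.86 in library 1 and 3.42 in library 2 in endothelial-like cells against 33.8 and 20.4 in the others. Rpl31 was at 3.82 and 3.48 against 4.70 and 3.03, so its endothelial and other values overlapped. Rpl15, whose start window carries the longest tract of those printed, was at 8.81 and 8.22 against 16.2 and 10.8. These departures had the same direction in both libraries, for instance 2.38 and 2.86 for Rpl31 and 0.509 and 0.416 for Rps28.

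**Figure D2:**
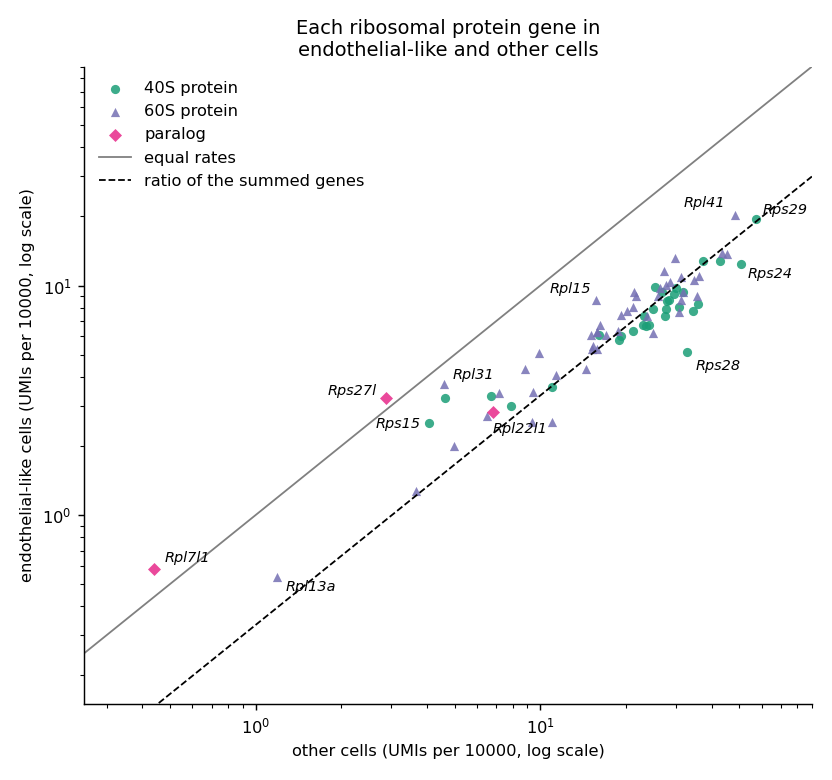
Level of each ribosomal protein gene in endothelial-like cells (y axis) against all other cells (x axis), in UMIs per 10000 on log scales; green circles are 40S proteins, violet triangles 60S proteins and pink diamonds paralogs, the grey line marks equal levels and the dashed line the 0.332-fold ratio of the summed genes. Most genes lie along the dashed line, Rps27l and Rpl7l1 lie just above the line of equal levels, and Rps28 lies below the dashed line.

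Among genes at 0.4 or more UMIs per 10000, Rps27l had the widest range over classes as a part of the pool, while Rpl7l1 departed further between endothelial-like and other cells. Rps27l is a near copy of the small-subunit protein Rps27 that p53 can induce. On GRCm38 Rps27 lies on chromosome 3 from 90212522 to 90213651 and Rps27l on chromosome 9 from 66946086 to 66949516. Rps27 itself was at 12.8 UMIs per 10000 in endothelial-like cells (13.9 in library 1, 10.3 in library 2) and at 42.6 in other cells (44.0 and 26.5). Rps27l was at 3.23 [3.04, 3.42] in endothelial-like cells (2.97 and 3.84) and at 2.86 [2.730, 2.999] in other cells (2.86 and 2.87). Per 100 UMIs of Rps27 there were thus 25.3 UMIs of Rps27l in endothelial-like cells and 6.71 in other cells. In library 1 these were 21.4 and 6.50, and in library 2 37.4 and 10.8. T-cell-like cells had the fewest, 1.02 [0.78, 1.32] per 100, from 58 UMIs in all and a level of 0.95, and B-cell-like cells 2.43 at a level of 2.03. Plasma-cell-like cells had 27.3 [23.7, 31.5] and alveolar-macrophage-like cells 21.3 [16.7, 26.8], which overlap the endothelial-like value within counting error. A UMI of Rps27l was seen in 73.0% of endothelial-like and in 28.2% of T-cell-like cells, at the median depths of 5239 and 3637 UMIs given above. Outside lymphocytes its level ranged from 2.49 in interstitial-macrophage-like to 4.03 in alveolar-macrophage-like cells. Plasma-cell-like cells lay in that range at 3.51. Their total holds the immunoglobulin messages described above, which lowers every other level in them.

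**Figure D3:**
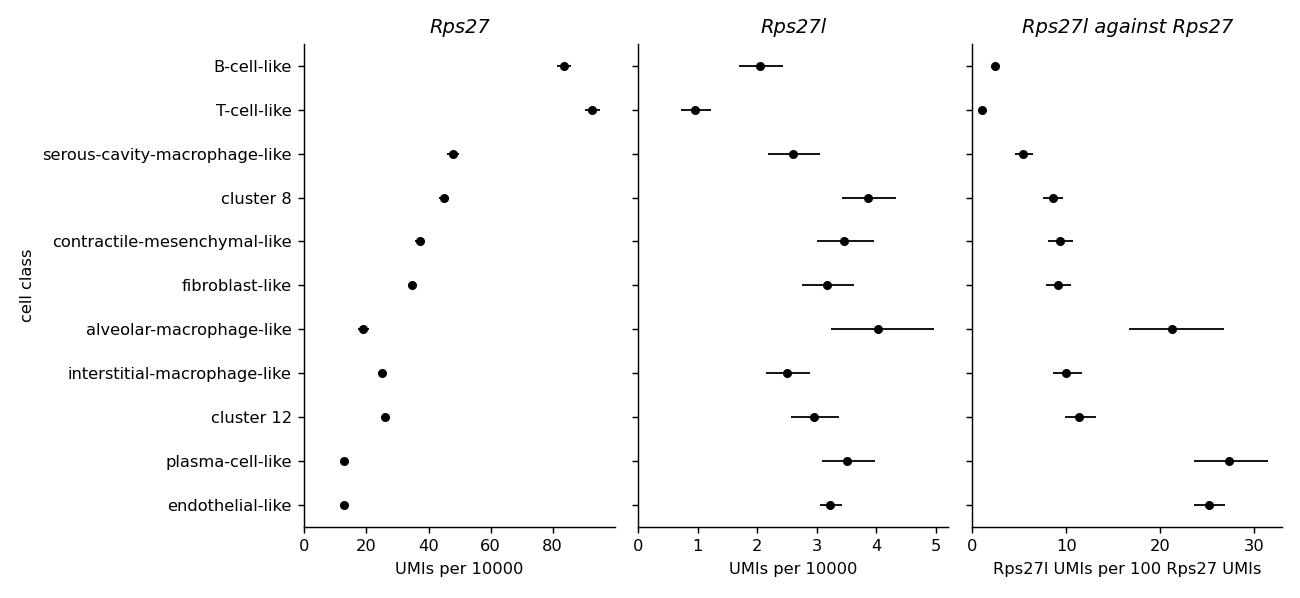
Level of Rps27 (left, UMIs per 10000), level of Rps27l (middle, UMIs per 10000) and UMIs of Rps27l per 100 UMIs of Rps27 (right) in each cell class, with exact 95% counting intervals; classes are ordered by ribosomal protein share. Rps27 is highest in T-cell-like cells, where Rps27l is lowest, and the ratio is highest in plasma-cell-like (27.3) and endothelial-like cells (25.3).

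The other paralogs had patterns of their own. Rpl7l1, a relative of Rpl7 found in ribosome assembly, was at 0.58 [0.50, 0.67] in endothelial-like and 0.44 [0.39, 0.49] in other cells, while Rpl7 was at 6.11 and 15.1. Per 100 Rpl7 UMIs there were 9.52 and 2.91 of Rpl7l1. T-cell-like cells held 13 UMIs of Rpl7l1 in all, a level of 0.21. Rpl22l1, whose partner Rpl22 binds RNA and matters for T-cell development, was highest in fibroblast-like cells, with 80.6 [73.3, 88.7] UMIs per 100 of Rpl22. It had 61.3 per 100 in contractile-mesenchymal-like, 53.5 in endothelial-like, 49.1 in T-cell-like and 14.3 [10.9, 18.4] in plasma-cell-like cells. Its 2.82 UMIs per 10000 in endothelial-like against 6.81 in other cells gave a ratio of 0.414, near that of the group. Rpl3l, a form known from muscle, had 16 UMIs in 15 cells, of which 7 UMIs were in 6 of 20 alveolar-macrophage-like cells and 6 UMIs in 6 of 104 interstitial-macrophage-like cells. Rpl39l, a form known from testis, had 10 UMIs in 4 cells, 8 of them in T-cell-like cells. Neither was seen in endothelial-like cells, and 0 of 603 cells allows a share of cells with a UMI of up to 0.498% as 3 counts of the total and 0.61% by the exact interval. With so few UMIs no order between classes can be read for Rpl3l and Rpl39l.

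Across all 11 classes the composition of the pool moved far less than its size. For the 78 genes at 1 or more UMIs per 10000, the highest class exceeded the lowest by a median of 5.40-fold in level (3.05 to 12.1, the highest for Rpl22l1). As a part of the ribosomal protein UMIs the median was 1.68-fold, with 55 of 78 genes within 2-fold and 6 past 3-fold. Among the 6 were Rps27l (16.2), Rpl22l1 (5.71), Rps15 (4.87), Rpl23a (3.75) and Rpl31 (3.63). In level, 59 of the 78 genes were lowest in endothelial-like and 17 in plasma-cell-like cells, and 45 were highest in B-cell-like and 23 in T-cell-like cells. Levels in plasma-cell-like cells are lowered by the immunoglobulin messages in their total. This bears on these 17 genes and on the 12.1-fold range of Rpl22l1, but not on the parts of the ribosomal protein UMIs. Rpl41 made up 5.89% of the pool in plasma-cell-like cells and 2.18% in B-cell-like cells. Alveolar-macrophage-like cells stood out by Rps15 (0.63% of the pool) and Rpl23a (0.52%), although only 20 cells support these values. Small-subunit UMIs per large-subunit UMI ranged from 0.72 [0.72, 0.73] in endothelial-like to 0.90 [0.89, 0.91] in T-cell-like cells.

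**Figure D4:**
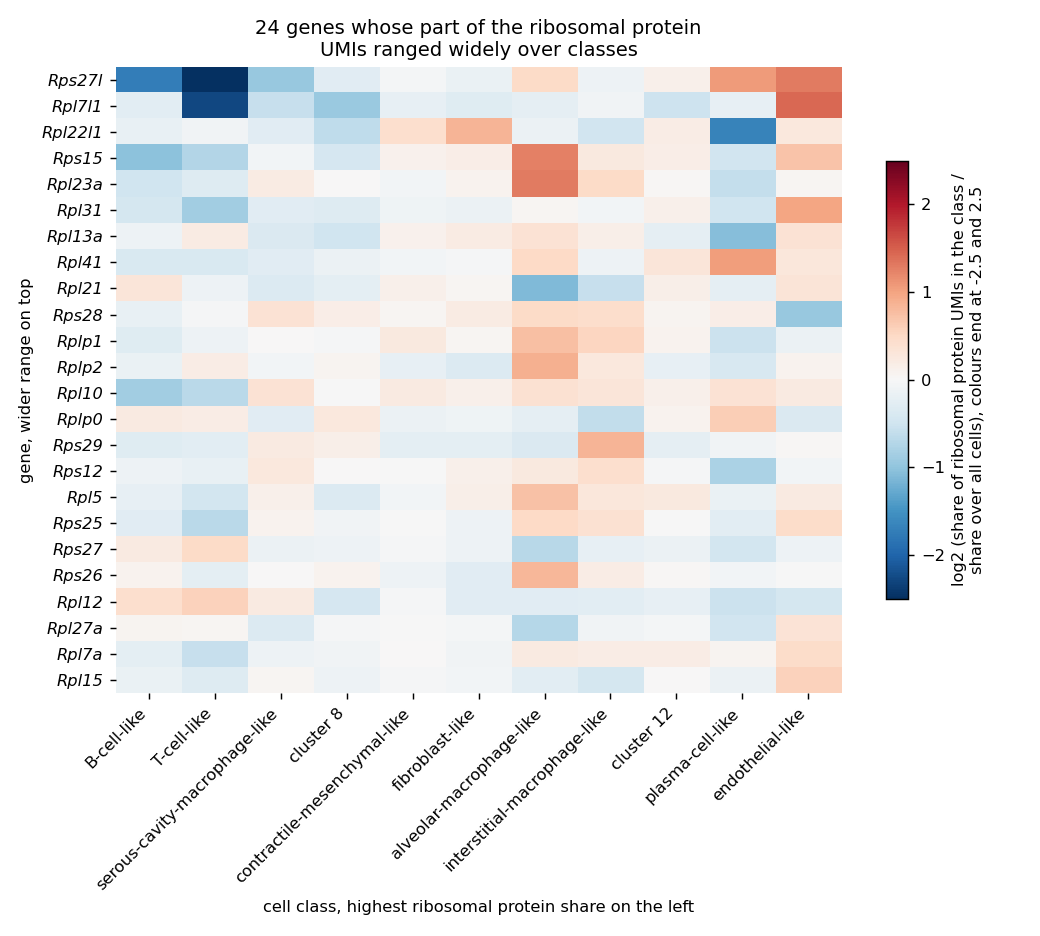
Part of the ribosomal protein UMIs taken by a gene in a class relative to its part over all cells (colour, log2, red higher and blue lower), for 24 genes with a wide range over classes among those at 0.4 or more UMIs per 10000. The strongest colours belong to Rps27l and Rpl7l1, lowest in T-cell-like and high in endothelial-like cells, and to Rpl22l1, lowest in plasma-cell-like cells.

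Among immune cells, lymphocytes carried more of these messages than macrophages. T- and B-cell-like cells together had a share of 29.0% and the 3 macrophage-like clusters named above, interstitial, alveolar and serous-cavity, 15.9%, a ratio of 1.83. It was 1.79 in library 1 (29.2% against 16.3%) and 1.77 in library 2 (22.4% in 7 cells against 12.7% in 18 cells). The macrophage side was uneven, since the serous-cavity-macrophage-like cluster had 22.1%; without it the ratio was 2.36. Of 80 genes tested, 60 were at least 1.5-fold higher in lymphocytes and 1, Rps27l, was as much lower, against 28.3% and 29.8% of all 8025 genes. The median ratio of the 80 was 1.80, and 1.03 over all genes.

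Rplp0, the scaffold of the stalk, was at 56.1 and 43.0 UMIs per 10000 in lymphocytes of libraries 1 and 2 and at 20.6 and 17.9 in macrophages. Rpl21 was at 39.8 and 27.9 against 14.8 and 10.4, the largest ratio among genes at 1 or more UMIs per 10000, 2.78 [2.64, 2.93]. For both genes each lymphocyte value exceeded each macrophage value. Other genes showed a smaller gap or none. Rpl10, which joins the large subunit late in its assembly, was at 15.6 and 20.2 in lymphocytes and 18.6 and 18.4 in macrophages. Rps29 was at 78.5 and 52.2 against 73.5 and 48.9. Within each library Rps29 was slightly higher in lymphocytes, with a pooled ratio of 1.11 [1.08, 1.14], whereas Rpl10 was lower in lymphocytes of library 1 and higher in those of library 2, which rest on only 55 and 142 UMIs of Rpl10 and Rps29 in 7 lymphocytes. As a part of the pool, Rps27l was 0.295, Rps15 0.451, Rpl10 0.460 and Rpl23a 0.538 times its macrophage value, and Rpl21 1.52 times. Rps29 reached 71.4 in interstitial-macrophage-like cells, close to its 76.0 in T-cell-like cells, although the share of the whole group there was 12.1%.

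Within the endothelium the share differed again by subtype. Each endothelial-like cell was assigned to whichever of Car4, Gpihbp1 and Vwf had the highest value. Car4 marks the large capillary cells specialised for gas exchange, Gpihbp1 is the anchor of lipoprotein lipase found in general capillary cells, and Vwf, von Willebrand factor, is highest in larger vessels. Car4-high cells (510) had a share of 5.14% (5.20% in library 1, 5.03% in library 2). Gpihbp1-high cells (73) had 8.79% (8.89%, and 7.12% in 7 cells of library 2). Vwf-high cells (17) had 10.8% (11.1%, and 7.35% in 2 cells of library 2). So Car4-high cells were lowest in both libraries, and the subtypes overlapped cell by cell: the ranges were 1.13% to 16.0%, 1.497% to 16.9% and 3.99% to 18.2%, with medians of 4.61%, 7.92% and 8.74%. In 62 endothelial-like cells the 2 highest of the 3 genes lay within 0.5 natural-log units of each other, among them 25 Gpihbp1-high and 6 Vwf-high cells, and 3 cells had none of the 3 genes. Vwf-high cells also carried markers of general capillary cells, with Gpihbp1 in 88.2%, Plvap in 88.2% and Cd93 in 100% of them. Of the listed markers of larger vessels, each but Plat was in a larger part of Vwf-high than of Gpihbp1-high cells. Only Vwf, which defines the subtype, and Lyve1 were in most Vwf-high cells. Lyve1 was in 76.5% of Vwf-high and 65.8% of Gpihbp1-high cells. Cytl1 was in 41.2% and 0%, and Bgn in 41.2% and 4.11%. Vcam1 was in 35.3% of Vwf-high and 5.48% of Gpihbp1-high cells, and Slc6a2 in 29.4% and 1.37%. Gja5 was in 5.88% and 2.74%, and Plat in 35.3% and 38.4%.

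Gpihbp1-high cells had 1.71 times the share of Car4-high cells, 1.71 in library 1 and 1.42 in library 2. Of 80 genes, 57 were at least 1.5-fold higher and 0 as much lower, against 14.3% and 19% of 8210 genes. The small subunit gave 26 of 31 and the large subunit 31 of 46. Rps24 was at 22.8 and 16.05 UMIs per 10000 in Gpihbp1-high cells of the libraries and at 10.2 and 9.46 in Car4-high cells. Rps28 was at 9.52 and 7.66 against 4.44 and 3.28, the largest ratio, 2.34 [2.10, 2.60]. For both genes every Gpihbp1-high value lay above every Car4-high value. Rpl31, in contrast, was at 3.64 and 1.82 against 3.83 and 3.53, with the 1.82 resting on 5 UMIs in 7 cells. Rps27l was at 2.46 and 2.92 in Gpihbp1-high against 3.10 and 3.85 in Car4-high cells. Its 2.92 in library 2 rests on 8 UMIs, with an interval of [1.26, 5.75] that spans the Car4-high value. Per 100 Rps27 UMIs there were 30.7 [28.5, 32.9] UMIs of Rps27l in Car4-high, 11.9 [9.88, 14.3] in Gpihbp1-high and 12.9 [8.38, 19.2] in Vwf-high cells. Rps27l, Rpl7l1 and Rpl31, which were short of 1.5-fold between endothelial-like and other cells, were short of it here as well.

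Car4-high cells had 0.476 times the share of Vwf-high cells, 0.469 in library 1 and 0.684 in library 2. There were 68 of 80 genes at least 1.5-fold lower and 0 higher in Car4-high cells, against 21.9% and 31.7% of 8121 genes. Levels near the minimum rest on few UMIs with 17 Vwf-high cells; at 1 or more UMIs per 10000, 68 of 78 genes were lower and 0 higher, against 12.4% and 30.7% of 1895 genes. With library 1 left out, which leaves 2 Vwf-high cells, 34 were lower and 11 higher. Rps24 was at 33.2 in Vwf-high cells of library 1 and 20.95 in those of library 2, above both Car4-high values given above. Rps28 was at 13.7 and 6.98, the latter on 5 UMIs [2.27, 16.3]. Vwf-high cells, though few, carried summed T-cell markers at 3.15 UMIs per 10000 (4 of 9 markers at 0), against 0.39 in Car4-high and 0.23 in Gpihbp1-high cells (6 of 9 at 0 in each) and 54.3 in T-cell-like cells. Without the 1 Vwf-high cell that carried markers of several lineages the share was 10.5%. Gpihbp1-high cells had 0.813 times the share of Vwf-high cells (0.801 and 0.970 in the libraries). Among cells of 4000 to 10000 UMIs, which leaves 6 Vwf-high cells, the ratio was 0.689. Of 80 genes, 78 were lower and 2 higher in Gpihbp1-high cells at any fold. The median ratio was 0.827, against 0.999 over all genes. Past 1.5-fold, 0 of 80 genes were higher in Gpihbp1-high cells and 1, Rps13, was lower, against 25.9% and 20.1% of 8229 genes.

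**Figure D5:**
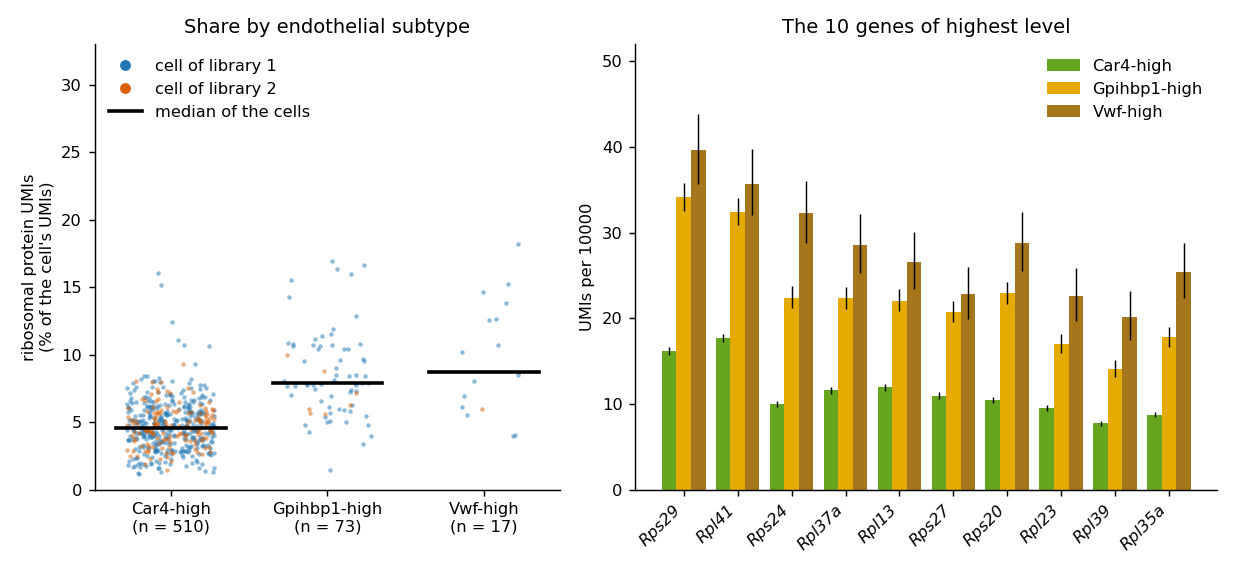
Left, share of each endothelial-like cell's UMIs from ribosomal protein genes (y axis, percent) by subtype, with cells coloured by library and medians as black bars. Right, levels of the 10 most abundant ribosomal protein genes in UMIs per 10000, as bars from 0 with exact 95% counting intervals. Medians are 4.61%, 7.92% and 8.74%, and all 10 genes are lowest in Car4-high cells.

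Depth and mitochondrial share also differed between these subtypes. Median depth was 5302 UMIs in Car4-high, 5107 in Gpihbp1-high and 4192 in Vwf-high cells, and the median mitochondrial share was 2.46%, 3.31% and 3.17%. Among Car4-high cells the ribosomal protein share went up with depth (Spearman's rho 0.57 over 510 cells that share libraries, as a description), among Gpihbp1-high cells weakly (0.18 over 73). In cells of 4000 to 10000 UMIs the Gpihbp1-high to Car4-high ratio was 1.63 and the Car4-high to Vwf-high ratio 0.424. Car4-high cells that clustered with the other Vwf and Gpihbp1 cells (59 cells of cluster 2) had 6.96%, and the other 451 had 4.72%. The part of depth, mitochondrial share and the T-cell messages in the subtype values was not tested.

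Cdkn2a itself separated Car4-high cells little. Among those of 4000 to 10000 UMIs, 222 cells with a Cdkn2a UMI had a share of 5.10% and 136 cells without one 5.61%, a ratio of 0.909. The ratio was 0.921 in library 1 and 1.01 in library 2, so the libraries lay on different sides of equal shares. Of 80 genes 0 passed 1.5-fold in either direction, against 7.3% higher and 5.73% lower of 8081 genes. A cell without a Cdkn2a UMI may still express the gene, since capture is incomplete.

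The rest of the translation machinery divided by kind. Counts of its genes stand against 20.5% lower and 46.9% higher among all 8920 genes in endothelial-like against other cells. Fau, a ribosomal protein made as a fusion with a ubiquitin-like domain and left out by the symbol rule, followed the group, at 13.6 UMIs per 10000 in endothelial-like against 40.1 in other cells. Other messages known to carry TOP tracts went the same way, 5 of 6 lower and 0 higher (median ratio 0.40), with Tpt1 at 18.8 against 46.9, Npm1 at 2.42 against 6.93, Rack1 at 3.54 against 8.99 and Pabpc1, the poly(A)-binding protein, at 0.9999 against 3.63. Of 6 elongation factors 4 were lower and 0 higher (median 0.56), among them Eef1a1 with 21.2 against 38.6 and Eef1b2 with 2.51 against 8.79. Of 29 initiation factors 5 were lower, a share near that of all genes, and 6 higher, a smaller share than that of all genes (median 1.12). Eif4g1, the scaffold of the cap-binding complex, was at 1.86 against 0.81, and Eif4h at 2.23 against 0.90.

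Genes that build ribosomes or control their making were seldom lower. Of 25 assembly genes 2 were lower and 6 higher in endothelial-like cells (median 1.04), both smaller shares than the 20.5% and 46.9% of all genes. Sbds, which acts in the last steps of large-subunit maturation, was at 2.74 against 0.85, and the nucleolar methyltransferase Fbl at 0.22 against 0.60. Of 12 control genes 1 was lower, Myc, and 6 were higher, among them Mtor at 0.24 against 0.11 and Eif4ebp2, a brake on cap-dependent initiation, at 1.97 against 0.43. Mitochondrial ribosomal proteins, which serve a separate ribosome, were lower in 3 and higher in 25 of 75 genes (median 1.31), again smaller shares than those of all genes. The last 3 medians lie near or below the 1.46 of all genes, whereas those of TOP messages and elongation factors lie further below it. Between lymphocytes and macrophages, where 28.3% of all 8025 genes were higher and 29.8% lower, 3 of 6 elongation factors and 3 of 6 other TOP messages were higher and 0 lower, with Npm1 at 12.5 against 6.51 and Eef1b2 at 15.9 against 7.95. There 13 of 26 assembly genes were higher and 1 lower (median 1.47), including Nop56 at 1.12 against 0.55.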

How the data were processed

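Single cells were profiled with the 10x Genomics Chromium 3' kit, version 3, per the labels' protocols, and processed with Cell Ranger 3.0.2 and mm10, per the submitters' processing notes. The deposited values are on a natural log scale, made by the authors from UMIs divided by the cell's total, times 10000, plus 1, as the values themselves show (back-transformed sums were 10000 in every cell). Whole UMIs were recovered from them (largest deviation 1.78e-10). For gene and cell filters and doublet removal, the sources used here give no account; the highest mitochondrial share was 5.00%. No doublet caller was run, and 23 cells (1.71%) with markers of several lineages were left out as an alternative.

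Clusters were made in scanpy 1.11.5 from 2000 variable genes without the ribosomal protein genes (values limited to 10, 20 components, 15 neighbours, Leiden resolution 0.5, igraph 0.11.9), giving 14 clusters joined into 11 classes by marker lists. Clustering the endothelial-like cells alone gave 4 groups that mostly followed the library, so subtypes were taken as the highest of Car4, Gpihbp1 and Vwf, the definition otherwise meant as an alternative. Levels are summed UMIs per 10000, a gene was tested at 0.1 or more, and a call is a 1.5-fold ratio, with no p-value because the table is 1 sample. Scripts were tested on simulated data. Gene positions come from GENCODE M21 (GRCm38).

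The members, marker lists and translation lists were chosen with earlier results of these data known. Named genes are the 10 of highest level, the paralogs with partners, Rpl5, Rpl11, Rps19, Rpsa and the stalk genes, up to 10 per comparison with the largest ratio of their part of the ribosomal protein UMIs and at least 50 UMIs, and up to 4 per other list. The separate copies, such as Rps27rt and Rpl36al, were named after their values were seen. A few genes covered by this rule are left out of the text.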

Additional observations from a re-analysis of the deposited data

How the results depend on the processing

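Of the share ratios, those of endothelial-like to other, lymphocyte to macrophage, Car4-high to Vwf-high and Gpihbp1-high to Car4-high cells kept their direction under each alternative run for them. The ratio of Car4-high cells with to without a Cdkn2a UMI, 0.909 in both libraries together, was 1.01 in library 2 alone. The endothelial-like to other ratio was 0.271 as a mean of the cells' own shares and 0.341 to 0.403 with either library left out. The lymphocyte to macrophage ratio was 1.69 with 30 components, 1.56 with classes from marker genes alone, 2.11 in cells of 4000 to 10000 UMIs, 1.89 as a mean of the cells' own shares, 1.85 without mitochondrial and immunoglobulin UMIs, 1.86 without the 5 most abundant genes, 2.36 without cluster 11, the serous-cavity-macrophage-like cells (chosen after seeing the data), and 1.77 to 1.79 with either library left out. The Car4-high to Vwf-high ratio was 0.469 to 0.684 and the Gpihbp1-high to Car4-high ratio 1.42 to 1.71 with either library left out. Counted on the part of the ribosomal protein UMIs, which removes the common shift by construction, 7 genes were 1.5-fold higher and 1 lower in endothelial-like cells, 2 higher and 10 lower in lymphocytes, and 9 higher and 2 lower in Car4-high against Vwf-high cells. At a fold of 2, lymphocytes had 27 genes higher and 0 lower, and Car4-high cells 45 lower. The 1 gene lower in lymphocytes became 0 with marker-gene classes and 2 with no minimum level. With either library left out, the counts were 0 to 1 higher and 74 to 76 lower in endothelial-like cells, 54 to 58 higher and 1 to 2 lower in lymphocytes, and 0 to 11 higher and 34 to 72 lower in Car4-high cells. The cause of these moves was not tested. The 17 Vwf-high cells limit what can be seen for genes of low level. No paired analysis was possible because the cell names carry library numbers that match no sample of the labels, and there is only 1 group.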
